A study of Gallus gallus with 27 samples.

Results

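SMOX, the gene of spermine oxidase, stood higher in suspension than in attached culture in every pairing of the study, by 2.28-fold to 4.07-fold. Without 1 attached library that stood apart, DF1 replicate 3, the lowest factor was 1.65-fold. SMOX belongs to a set of 8 genes that make, regulate or break down polyamines: ODC1, AMD1, SRM, SMS, AZIN1, SAT1, SMOX and PAOX. They were taken by symbol from a table of normalized expression with 14161 rows, and all 8 symbols had a row. The list was chosen by pathway and by the measured difference of suspension to attached cells, with results of these data known. For these 8 genes, values of that contrast are therefore given as a description without a test, and tests of them are kept to comparisons outside it. Those comparisons share libraries with the contrast, so they are not independent of the choice of genes. Other genes of the pathway are tested in the contrast of suspension to attached cells as well.

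Polyamines are small positively charged molecules (putrescine, spermidine and spermine) that bind nucleic acids and are needed for growth and for translation. ODC1 makes putrescine from ornithine, AMD1 makes the aminopropyl donor from S-adenosylmethionine, and SRM and SMS add the aminopropyl groups that give spermidine and then spermine. In mammals, antizyme proteins direct ODC1 to the proteasome, and AZIN1 binds antizyme in its place. SAT1 acetylates spermidine and spermine, PAOX oxidizes the acetylated forms, and SMOX oxidizes spermine itself to spermidine with release of hydrogen peroxide. Much control of ODC1, AMD1 and SAT1 lies in translation and protein turnover, which RNA levels do not measure.

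RNA of chicken cells was sequenced in 27 libraries, 3 per group, which the series design calls biological replicates. CEF2 and CEF4 were primary embryonic fibroblasts of the breeds Broiler Ross 308 and Israeli Baladi. CF2 (Broiler Ross 308) and CF4 (Israeli Baladi) were immortalized fibroblasts, and SCF2 and SCF4 were spontaneously immortalized fibroblasts grown without anchorage. CF and SCF cultures had passed at least 120 population doublings per the growth protocol, without transgenes per the series title. Suspension cultures came from spheroids moved to shaker flasks with Pluronic F-68. DF1 is an established immortal line of East Lansing Line 0 chickens, and SDF1 is its anchorage-independent form. FAT was labelled Fat, of Israeli Baladi, and the sources used here do not say whether it was tissue or differentiated cells. CEF, CF and DF1 are called attached here because only the SCF and SDF1 labels say anchorage-independent. Each immortal group is 1 line or bank, so its replicates do not show how other lines would vary. For both SCF lines the source field and the breed field of the labels contradict each other on the breed, so the lines are named and paired by number. By the breed field, SCF2 is Israeli Baladi and SCF4 is Broiler Ross 308. Pairings of SCF with CEF or CF of the same number may therefore cross breeds, and growth form and breed could then not be told apart.

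CEF and SCF libraries form a first deposited set, and CF, DF1, SDF1 and FAT a second set, so that SCF against CF, CF against CEF, and SDF1 against SCF cannot be told apart from the set. The treatment text of all second-set samples describes a medium with oleic acid and lecithin and does not say which groups received it. Libraries held 12.3 to 28.7 M (mega) reads in cultured groups and 4.6 to 10.4 M in FAT. DF1 replicate 3 stood apart: its log2 values had a mean correlation of 0.951 with the other DF1 libraries and 0.963 with CF2. Of 9326 genes, 13.7% were below 0.5 of the mean of DF1 replicates 1 and 2 in that library, and differences to DF1 are given with and without it. Group orders and correlations of group means use all DF1 libraries. Fibroblast markers were all detected in every group, with summed levels of 652861 to 1277301 normalized reads in CEF libraries and 60352 to 174263 in immortal libraries (10 of 10 markers with a row). COL1A1, COL1A2, COL3A1, VIM and FN1 had lower means in every immortal group than in both CEF groups. PDGFRA, PDGFRB, THY1, DCN and LUM did not, and THY1 had a mean of 16819 in SDF1 against 13488 in CEF4. In these bulk samples, fewer cells of a type and less RNA per cell cannot be told apart.

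In suspension, the breakdown enzymes SMOX and PAOX and the antizyme inhibitor gene AZIN1 had higher mean levels than in attached cells in all 5 pairings. The spermidine synthase gene SRM and the decarboxylase gene AMD1 had lower mean levels in all 5. ODC1, SMS and SAT1 had no common direction. Over the 5 pairings, 32 of 40 pairs of gene and pairing had no overlap between the 3 suspension and the 3 attached libraries. By pairing, the libraries did not overlap for 8 of 8 genes in SCF2 against CEF2, where 71.7% of all tested genes did not overlap either. The number was 6 in SCF4 against CEF4 beside 64.1% of all genes. It was 6 in SCF2 against CF2 beside 54.5%, 5 in SCF4 against CF4 beside 57.5%, and 7 in SDF1 against DF1 beside 52.8%. The pairings SCF2 against CEF2 and SCF2 against CF2 share the SCF2 libraries, and those of line 4 share the SCF4 libraries.

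**Figure D1:**
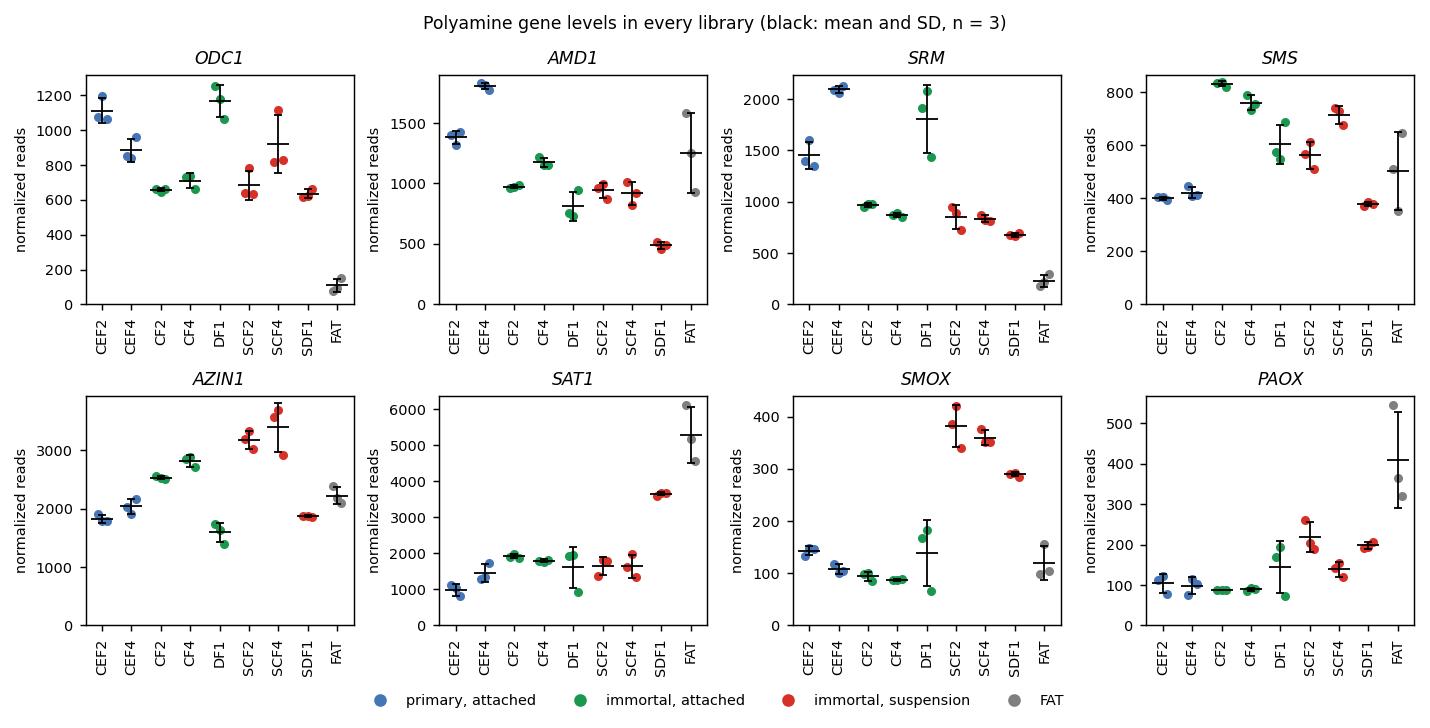
Normalized reads of the 8 polyamine genes in each library, 1 panel per gene, with groups along the horizontal axis; points are libraries and bars are means of 3. SMOX lies between 285 and 421 in the suspension groups and between 65.8 and 183 in the attached cultures and FAT.

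ODC1, the first enzyme of the route, had no common direction in suspension. Its level was 1075, 1197 and 1066 normalized reads in CEF2, and 640, 782 and 634 in SCF2. It was 664, 648 and 664 in CF2, inside the SCF2 range. SCF2 thus stood below CEF2 without overlap (log2 -0.70, SE 0.11) and overlapped with CF2. In line 4 the values were 854, 839 and 962 in CEF4, 732, 737 and 660 in CF4, and 820, 1114 and 830 in SCF4. SCF4 overlapped with CEF4 and lay above CF4 (log2 0.36, SE 0.11). DF1 had 1252, 1181 and 1067 and SDF1 616, 623 and 665, the largest difference of ODC1 among the pairings (log2 -0.87, SE 0.07; -0.94 without DF1 replicate 3). In ascending order of means, the groups were FAT, SDF1, CF2, SCF2, CF4, CEF4, SCF4, CEF2 and DF1. Neighbours in that order overlapped except FAT with SDF1 and CF4 with CEF4.

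AMD1, which supplies the aminopropyl donor, was highest in primary cells and lowest in SDF1. It had 1399, 1321 and 1427 normalized reads in CEF2 and 1827, 1814 and 1774 in CEF4. SCF2 had 962, 996 and 871, and SCF4 had 1010, 822 and 925, so both suspension lines lay under both primary cultures. The log2 difference was -0.55 (SE 0.08) in line 2 and -0.98 (SE 0.08) in line 4. Against the attached immortal lines it was -0.05 with overlap in line 2 (CF2 965, 974 and 986; 0.01 without SCF2 replicate 3) and -0.36 in line 4 (CF4 1219, 1154 and 1152). SDF1 had 517, 461 and 490 against 755, 729 and 946 in DF1 (log2 -0.72, SE 0.09; -0.60 without DF1 replicate 3). The ascending order was SDF1, DF1, SCF4, SCF2, CF2, CF4, FAT, CEF2 and CEF4. SDF1 with DF1, CF2 with CF4 and CEF2 with CEF4 were the neighbours that did not overlap.

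SRM, spermidine synthase, showed the largest differences among the synthesis genes against both primary cultures and in the DF1 pairing, but not against CF2 or CF4. It had 1400, 1597 and 1352 normalized reads in CEF2 and 948, 887 and 725 in SCF2 (log2 -0.77, SE 0.09). In line 4 it had 2087, 2060 and 2131 in CEF4 and 871, 822 and 814 in SCF4, a 2.50-fold difference (log2 -1.32, SE 0.09). The attached immortal lines were close to the suspension lines. CF2 had 951, 980 and 975 and CF4 had 869, 890 and 854, with log2 differences of SCF to CF of -0.19 and, with overlap, -0.06. DF1 had 1908, 2077 and 1433 and SDF1 674, 662 and 699, a 2.63-fold difference (log2 -1.39, SE 0.11; -1.55 without DF1 replicate 3). DF1 thus lay in the range of primary cells and SDF1 under every other cultured group. The order of means was FAT, SDF1, SCF4, SCF2, CF4, CF2, CEF2, DF1 and CEF4. SCF4 with SCF2, SCF2 with CF4, CEF2 with DF1 and DF1 with CEF4 overlapped.

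SMS, spermine synthase, differed in sign between the pairings. It had 405, 404 and 394 normalized reads in CEF2 and 446, 409 and 411 in CEF4. SCF2 had 568, 611 and 511, and SCF4 had 740, 729 and 676, above the primary cells (log2 0.49 and 0.76, SE 0.07 each). The attached immortal lines were higher still. CF2 had 837, 841 and 822, above SCF2 (log2 of SCF2 to CF2 -0.57), and CF4 had 790, 735 and 757, overlapping with SCF4 (log2 -0.09). SDF1 had 371, 387 and 379 against 576, 548 and 688 in DF1 (log2 -0.66, SE 0.08; -0.57 without DF1 replicate 3). From SDF1 as the lowest, the order was CEF2, CEF4, FAT, SCF2, DF1, SCF4, CF4 and CF2. Neighbours overlapped except SDF1 with CEF2, CEF2 with CEF4, and CF4 with CF2.

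AZIN1, the antizyme inhibitor, lay higher in suspension in each pairing without overlap, by smaller factors than SMOX. It had 3194, 3325 and 3019 normalized reads in SCF2, against 2558, 2530 and 2512 in CF2 and 1905, 1785 and 1796 in CEF2. In line 4 it had 3579, 3699 and 2917 in SCF4, 2862, 2894 and 2710 in CF4 and 2029, 1918 and 2176 in CEF4. In both lines the level was lowest in primary, intermediate in attached immortal and highest in suspension cells. The log2 difference to primary cells was 0.80 in line 2 and 0.73 in line 4, and that to the attached immortal line was 0.33 and 0.26 (SE 0.08 each). SDF1 had 1883, 1885 and 1858 and DF1 1736, 1642 and 1405 (log2 0.24, SE 0.08; 0.15 without DF1 replicate 3). The ascending order was DF1, CEF2, SDF1, CEF4, FAT, CF2, CF4, SCF2 and SCF4. The neighbours CEF2 with SDF1, CEF4 with FAT and SCF2 with SCF4 overlapped.

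SAT1, the acetyltransferase that starts polyamine breakdown and export, was higher in suspension in the DF1 pairing. In SCF2 and SCF4 it was lower than or overlapping with the attached immortal line of the same number. DF1 had 1939, 1950 and 940 normalized reads and SDF1 3607, 3666 and 3683, a 2.39-fold difference (log2 1.26, SE 0.22). Without DF1 replicate 3 it was 1.88-fold (log2 0.91, SE 0.04). SCF2 had 1372, 1813 and 1779, below CF2 with 1913, 1987 and 1878 (log2 -0.23, SE 0.15). SCF4 had 1633, 1973 and 1337 and CF4 1803, 1753 and 1828, which overlapped. Against primary cells, SCF2 was higher than CEF2 with 1120, 1027 and 809 (log2 0.75), and SCF4 overlapped with CEF4 with 1285, 1354 and 1732 (log2 0.17). The order of means was CEF2, CEF4, DF1, SCF4, SCF2, CF4, CF2, SDF1 and FAT. CEF4 with DF1, DF1 with SCF4, SCF4 with SCF2 and SCF2 with CF4 overlapped.

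SMOX, which oxidizes spermine directly, separated suspension from all other groups. It had 385, 421 and 340 normalized reads in SCF2, 377, 352 and 351 in SCF4, and 291, 293 and 285 in SDF1. Attached immortal cells had 99.0, 100 and 84.9 in CF2, 86.9, 86.4 and 89.8 in CF4, and 168, 183 and 65.8 in DF1. Primary cells had 133, 148 and 147 in CEF2 and 118, 100 and 105 in CEF4. The lowest suspension library was therefore above the highest attached library. Between 119 and 1097 recovered reads per cultured library stood behind these values. SCF2 was 4.00-fold above CF2 (log2 2.00, SE 0.10) and 2.66-fold above CEF2 (log2 1.41, SE 0.10). SCF4 was 4.07-fold above CF4 (log2 2.03) and 3.33-fold above CEF4 (log2 1.74). SDF1 was 2.28-fold above DF1 (log2 1.19, SE 0.31), and 1.65-fold without DF1 replicate 3 (log2 0.72, SE 0.08). Ascending means ran from CF4 over CF2, CEF4, FAT, DF1, CEF2, SDF1 and SCF4 to SCF2. CEF2 with SDF1 and SDF1 with SCF4 were the neighbours without overlap.

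PAOX, which oxidizes acetylated polyamines, was higher in SCF2 and SCF4 than in the attached groups of the same number. It had 260, 204 and 189 normalized reads in SCF2, 88.2, 87.1 and 86.6 in CF2, and 113, 122 and 76.7 in CEF2. It had 143, 154 and 119 in SCF4, 84.6, 91.5 and 91.2 in CF4, and 75.5, 116 and 103 in CEF4. SCF2 was 2.45-fold above CF2 (log2 1.30) and 2.11-fold above CEF2 (log2 1.07), while SCF4 was 1.54-fold above CF4 (log2 0.62) and 1.42-fold above CEF4 (log2 0.51; SE 0.18 in each). SDF1 with 192, 195 and 207 overlapped with DF1 with 169, 193 and 71.9 (log2 0.57, SE 0.29). Without DF1 replicate 3 that difference was 0.13 on the log2 scale (SE 0.08). The order of means was CF2, CF4, CEF4, CEF2, SCF4, DF1, SDF1, SCF2 and FAT, and only SCF2 with FAT did not overlap among neighbours. In DF1 replicate 3 the ratio to the mean of the other DF1 libraries was 0.375 for SMOX, 0.397 for PAOX and 0.484 for SAT1, and 0.719 to 1.28 for the other genes.

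**Figure D2:**
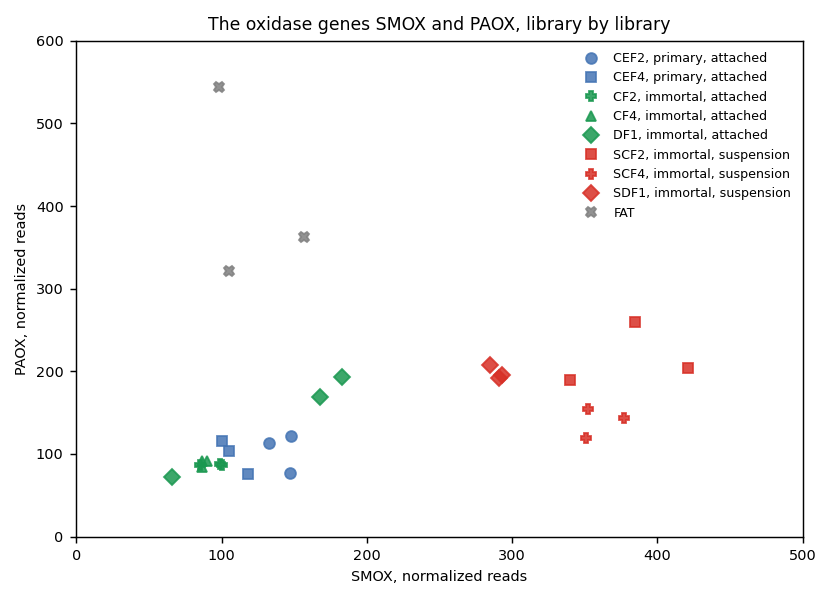
SMOX (horizontal axis) against PAOX (vertical axis) in normalized reads, 1 point per library, with a marker and colour per group. Suspension libraries lie to the right at SMOX levels of 285 to 421, FAT lies at the top with PAOX levels of 321 to 544, and DF1 replicate 3 lies apart from its group at 65.8 and 71.9.

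**Figure D3:**
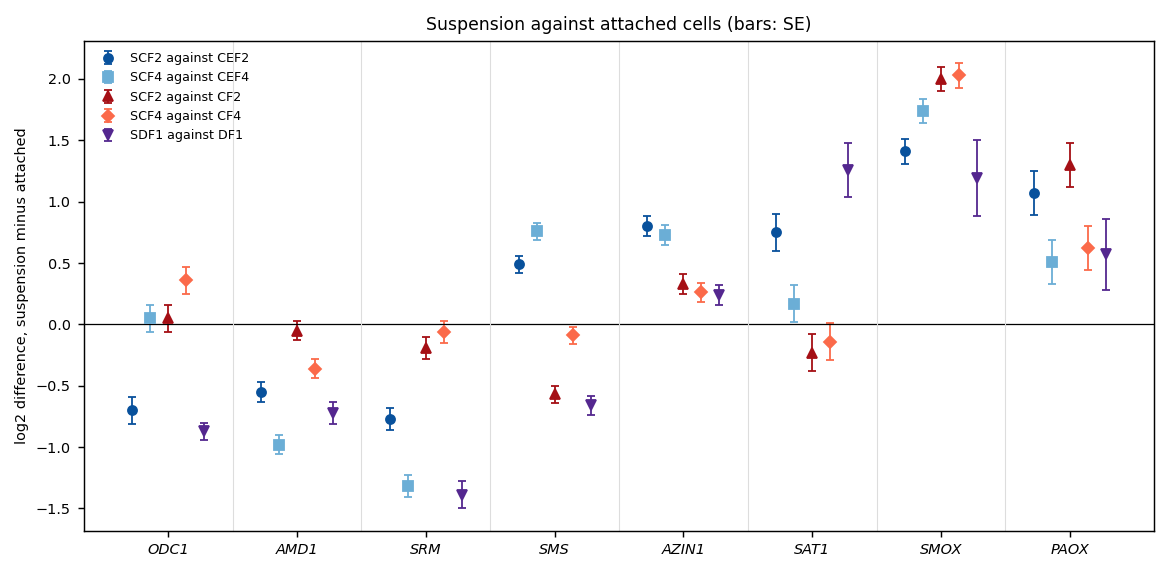
Log2 difference of suspension to attached cells for the 8 genes in the 5 pairings, with the standard error of the fit as error bars. SMOX lies between 1.19 and 2.03 in all pairings, AZIN1 between 0.24 and 0.80, and SRM between -1.39 and -0.06. Without DF1 replicate 3, which the figure includes, SDF1 against DF1 was at 0.72 for SMOX, 0.15 for AZIN1 and -1.55 for SRM.

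The attached immortal lines differed from the primary cultures in most of these genes, with lower ODC1, AMD1, SRM and SMOX and higher SMS and AZIN1 in both lines. In CF2 against CEF2, 3 of the 8 genes rose and 4 fell (limma, Benjamini-Hochberg adjusted over all genes), beside 72.2% of all genes called, 29.6% higher and 42.6% lower. In CF4 against CEF4, 2 rose and 4 fell, beside 70.2% of all genes called, 31.2% higher and 39.0% lower. With so many genes called, these counts show nothing particular to the set. SMS rose by 1.05 on the log2 scale in line 2 (SE 0.07, adjusted p = 4.06e-10) and by 0.85 in line 4 (SE 0.07, adjusted p = 9.51e-09). AZIN1 rose by 0.47 in both (SE 0.08 each). SRM fell by 0.58 in line 2 (SE 0.09, adjusted p = 1.01e-05) and by 1.26 in line 4 (SE 0.09, adjusted p = 2.90e-10). AMD1 fell by 0.50 and 0.62 (SE 0.08 each). The change of SRM differed between the lines (line 4 minus line 2, log2 -0.69, SE 0.12, adjusted p = 1.53e-04), in a contrast where 50.7% of all genes were called.

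ODC1 fell by 0.75 in line 2 (SE 0.11, adjusted p = 7.38e-06) and by 0.32 in line 4 (SE 0.11, adjusted p = 0.0167), and the change differed between the lines by 0.44 (SE 0.16, adjusted p = 0.0272). The call in line 4 was lost without CEF4 replicate 3 (log2 -0.26) and without CF4 replicate 3 (log2 -0.27). SAT1 rose in line 2 (log2 0.98, SE 0.15, adjusted p = 9.02e-06), and in line 4 it was at 0.31 (SE 0.15, adjusted p = 0.065), with a difference of -0.67 between the lines (SE 0.21, adjusted p = 0.0122). The line 4 value was called without CEF4 replicate 3 (0.44), under quantile normalization (0.38), with edgeR (0.34) or DESeq2 (0.33) on recovered reads, and when only these groups were fitted (0.31). Its adjusted p ran from 0.0147 to 0.217 over the alternatives. SMOX fell by 0.59 in line 2 (SE 0.10, adjusted p = 6.33e-05) and by 0.29 in line 4 (SE 0.10, adjusted p = 0.0206), but under quantile normalization the values were -0.12 and 0.05, neither of them called. The call in line 4 was also lost with edgeR (-0.25), when only these groups were fitted (-0.29), and without CEF4 replicate 1 (-0.22), CF4 replicate 1 (-0.28) or CF4 replicate 2 (-0.28). PAOX was at -0.22 in line 2 (adjusted p = 0.279) and at -0.12 in line 4 (adjusted p = 0.577), and without CEF2 replicate 3 the line 2 value was -0.42 and was called.

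Other features moved with this comparison. Proliferation markers (8 of 10 with a row) summed to 9491 to 12147 normalized reads in CEF and 19886 to 22510 in CF. Cartilage markers (8 of 8) summed to 7205 to 8037 in CEF2, 255775 to 378888 in CEF4 and 11.9 to 19.9 in CF, where MATN3 and SOX9 were at 0 in both groups. Skeletal muscle markers (9 of 10) summed to 2022 to 2490 in CEF2, 0 to 15.2 in CEF4 and 5.53 to 17.0 in CF, with MYOG, MYF5 and MYF6 at 0 in CF2, CF4 and CEF4. Adipocyte markers (7 of 8) summed to 2380 to 2457 in CEF2 and 639 to 782 in CEF4, against 16.7 to 22.5 in CF2 and 28.0 to 35.1 in CF4, with LPL at 0 in both CF groups. Means of PLIN1 (11.8 against 8.47), CD36 (1.97 against 1.49) and ADIPOQ (0.411 against 0.15) were higher in CF4 than in CEF4. Macrophage markers (9 of 10) summed to 346 to 372 in CEF2 and 185 to 265 in CEF4. They summed to 59.5 to 62.0 in CF2 and 90.1 to 93.3 in CF4. C1QA, C1QB and C1QC were at 0 in CF2, CF4 and CEF4, and at means of 2.58 to 3.26 in CEF2. Means of MARCO (23.4 against 0) and CD74 (44.7 against 22.5) were higher in CF4 than in CEF4. Those of CSF1R, PTPRC, CTSS and LY86 were lower in CF4. In line 2 the mean of MARCO was higher in CF2 (13.2) than in CEF2 (7.95), and those of the other macrophage markers were lower in CF2. The part of these cell types and of proliferation in the polyamine values was not tested. The SCF libraries carried 24812 to 25125 (SCF2) and 22045 to 23821 (SCF4) for proliferation, and 22.0 to 43.2 for cartilage.

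Between the primary cultures, CEF4 had more AMD1 (log2 0.39, SE 0.08, adjusted p = 4.16e-04), SRM (0.53, SE 0.09, adjusted p = 6.00e-05) and SAT1 (0.56, SE 0.15, adjusted p = 0.00397) than CEF2. It had less SMOX (-0.41, SE 0.10, adjusted p = 0.00375) and ODC1 (-0.33, SE 0.11, adjusted p = 0.0204). These were 5 of 8 genes, beside 46.3% of all genes in limma. The ODC1 call was lost without CEF2 replicate 2 (-0.28), CEF4 replicate 1 (-0.31) or CEF4 replicate 2 (-0.29). These groups differ in breed and, as given above, in cartilage, muscle, adipocyte and macrophage markers. Of the macrophage markers, LY86 had a higher mean in CEF4 (67.6) than in CEF2 (8.48), while the others with a row had lower means in CEF4. Epithelial markers (5 of 6) summed to 68.0 to 94.6 in CEF2 and 10.5 to 18.9 in CEF4, but the mean of EPCAM was higher in CEF4 (3.15 against 0.433). The part of these cell types was not tested.

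The attached immortal lines were set against each other. In CF4 against CF2 only AMD1 was called of the 8 (log2 0.27, SE 0.08, adjusted p = 0.00765), beside 45.4% of all genes in limma. The other 7 log2 differences ran from -0.15 for SRM to 0.16 for AZIN1. When only these groups were fitted, 6 of the 8 were called, while the calls over all genes went from 5955 to 8442, which was 75.8% of the genes then tested. The fits of the 6 CEF, CF and SCF groups share 1 estimate of the spread, while the groups spread unequally: the SD of ODC1 was 9.38 in CF2, 43.2 in CF4 and 167 in SCF4.

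Between the suspension lines, SCF4 had more ODC1 (log2 0.42, SE 0.11, adjusted p = 0.00714) and SMS (0.35, SE 0.07, adjusted p = 0.00154) and less PAOX (-0.64, SE 0.18, adjusted p = 0.00985) than SCF2. These 3 of 8 stand beside 32.2% of all genes in limma. When only SCF2 and SCF4 were fitted 1 of the 8 was called, while the calls over all genes went from 4222 to 2838, which was 25.4% of the genes then tested. Without SCF2 replicate 1 the PAOX value was -0.51 and was not called. SMOX differed by -0.08 (SE 0.10, adjusted p = 0.632), and AZIN1, AMD1, SRM and SAT1 by -0.04 to 0.09.

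The established line DF1 was higher than the new attached lines CF2 and CF4 in ODC1 and SRM and lower in AZIN1, AMD1 and SMS, 5 of 8 genes beside 51.9% of all genes called in limma. ODC1 was 1.70-fold higher (log2 0.77, SE 0.06, adjusted p = 5.44e-06) and SRM 1.94-fold higher (log2 0.96, SE 0.10, adjusted p = 2.31e-05). AZIN1 was lower by 0.75 on the log2 scale (SE 0.07, adjusted p = 7.71e-06), AMD1 by 0.41 (SE 0.08, adjusted p = 0.00176) and SMS by 0.40 (SE 0.07, adjusted p = 7.81e-04). These groups differ in breed as well as in line. SMOX (0.47, adjusted p = 0.161), PAOX (0.59, adjusted p = 0.0723) and SAT1 (-0.28, adjusted p = 0.249) were not called with all libraries. Without DF1 replicate 3, SMOX was at 0.94 and PAOX at 1.02, both called, and SAT1 at 0.07 was not. The other values were then 0.83 for ODC1, 1.12 for SRM, -0.66 for AZIN1, -0.53 for AMD1 and -0.50 for SMS, all called, beside 77.2% of all genes.

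In suspension, SDF1 had more SAT1 and less AMD1, AZIN1, SMS, ODC1 and SRM than SCF2 and SCF4, 6 of 8 genes beside 43.8% of all genes called in limma. SAT1 was 2.23-fold higher (log2 1.16, SE 0.18, adjusted p = 2.79e-05). AMD1 fell by 0.92 on the log2 scale (SE 0.08, adjusted p = 1.47e-08), AZIN1 by 0.80 (SE 0.08, adjusted p = 6.10e-08) and SMS by 0.74 (SE 0.07, adjusted p = 8.11e-08). ODC1 fell by 0.31 (SE 0.10, adjusted p = 0.0109), with overlap of the libraries, and SRM by 0.31 (SE 0.10, adjusted p = 0.0121). Without SDF1 replicate 2 the SRM value was -0.29 and was not called. SMOX was at -0.35 (adjusted p = 0.168) although the SDF1 libraries all lay below the SCF libraries, and it was called at -0.44 under quantile normalization and at -0.35 when only these groups were fitted (adjusted p 0.00373 to 0.294 over the alternatives). PAOX was at 0.20 (adjusted p = 0.535). The main fit also held the DF1 libraries with replicate 3, which fitting only these groups leaves out. The part of that library in the spread (SE 0.20 for SMOX) was not tested. Proliferation markers summed to 22223 to 22530 in SDF1, inside the SCF range, but single markers went both ways. Means of MCM2 (685 against 1038 in SCF2 and 2152 in SCF4), PCNA and MCM5 were lower in SDF1 than in both SCF groups. Those of MKI67 (2811 against 2236 and 1401), CCNA2 and CDK1 were higher, and those of TOP2A and BUB1B lay between the SCF groups. Under quantile normalization the share of higher calls over all genes went from 57.6% to 45.9% and the median from 0.07 to -0.06.

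**Figure D4:**
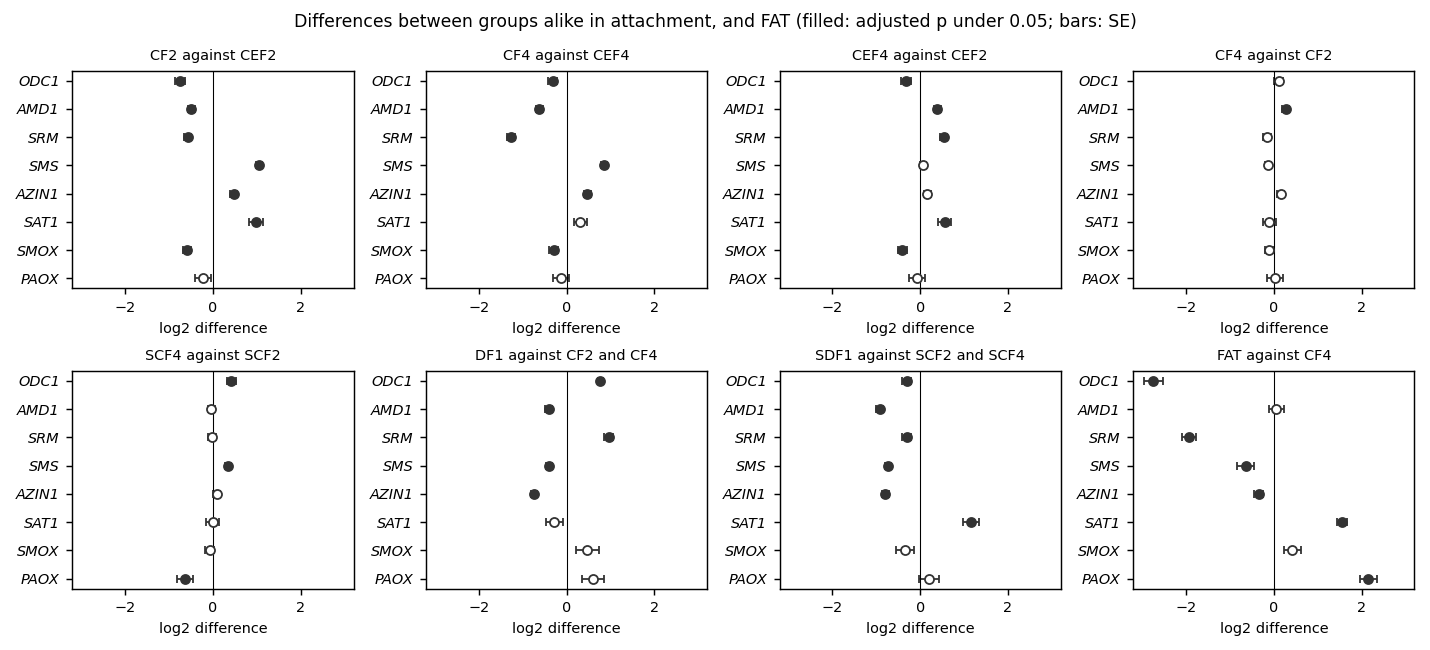
Log2 differences of the 8 genes in the comparisons outside the contrast of suspension with attached cells, with standard errors of the fit. Filled points passed an adjusted p of 0.05 in limma, and FAT against CF4 holds the largest difference, -2.74 for ODC1.

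FAT had little ODC1 and SRM RNA and much SAT1 and PAOX RNA beside CF4, the attached line of the same breed. ODC1 had 79.0, 95.8 and 154 normalized reads in FAT, from 25 to 101 reads per library, and was 6.68-fold lower than in CF4 (log2 -2.74, SE 0.21, adjusted p = 4.68e-06). SRM had 180, 221 and 293 and was 3.83-fold lower (log2 -1.94, SE 0.16, adjusted p = 7.08e-06). SAT1 with 6115, 5190 and 4567 was 2.93-fold higher (log2 1.55, SE 0.12, adjusted p = 4.30e-06). PAOX with 544, 363 and 321 was 4.44-fold higher (log2 2.15, SE 0.19, adjusted p = 1.00e-05). SMS with 509, 354 and 646 (log2 -0.64, adjusted p = 0.0145) and AZIN1 with 2397, 2192 and 2097 (log2 -0.34, adjusted p = 0.01) were lower. In all 6 of 8 genes were called, beside 74.3% of all genes in limma. AMD1 with 1584, 1248 and 928 (0.06, adjusted p = 0.772) and SMOX with 98.0, 157 and 105 (0.42, adjusted p = 0.0786) were not called, and under quantile normalization both had the opposite sign (-0.21 and -0.33). Without FAT replicate 3 they were called at 0.26 and 0.50, and SMOX also without FAT replicate 1, at 0.54, where AMD1 was at -0.13. Under quantile normalization the median over all genes moved from 0.40 to -0.24 and the share of higher calls from 61.2% to 43.5%.

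FAT holds other cells than CF4. Adipocyte markers (7 of 8 with a row) summed to 70982 to 294201 normalized reads in FAT and 28.0 to 35.1 in CF4, where FABP4 and LPL were at 0. Skeletal muscle markers (9 of 10) summed to 10355 to 281870 in FAT and macrophage markers (9 of 10) to 14094 to 31532, against 14.2 to 17.0 and 90.1 to 93.3 in CF4. In CF4, MYOG, MYF5 and MYF6, and C1QA, C1QB and C1QC, were at 0. Endothelial markers (7 of 8) summed to 7789 to 31130 in FAT and 1696 to 1742 in CF4. In CF4 that sum was mostly ERG (mean 1673), which was lower in FAT (651). PECAM1, CDH5, KDR, VWF, TEK and TIE1 were higher in FAT. Cartilage markers (8 of 8) summed to 2678 to 4613 in FAT and 16.8 to 19.9 in CF4. In FAT that sum was mostly CHAD (mean 3634), and the other cartilage markers had means of 3.87 to 88.2. Proliferation markers summed to 1615 to 1970 in FAT and 21669 to 22510 in CF4. The part of each in the differences was not tested.

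Across the 8 cultured group means, SMOX and PAOX moved most alike among the 8 genes (Pearson r of log2 values 0.88), and r was 0.40 with FAT. ODC1 and SRM had r = 0.74, and 0.90 with FAT. AMD1 and SAT1 moved in opposite directions (r = -0.79, and -0.39 with FAT), as did ODC1 and SAT1 (r = -0.73, and -0.85 with FAT). The groups share lines and deposited sets, so these values describe 8 or 9 points. The fold from the lowest to the highest cultured group mean was 4.36 for SMOX, 3.71 for SAT1, 3.68 for AMD1, 3.09 for SRM, 2.50 for PAOX, 2.20 for SMS, 2.13 for AZIN1 and 1.84 for ODC1.

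Among 9825 genes, the one with the pattern most like SMOX over the 9 group means was BID, with r = 0.954, which encodes a pro-apoptotic BCL2 family protein. PTRH2 (r = 0.916) and SCP2 (r = 0.915) followed. For AMD1 it was IKBKAP (r = 0.965), a subunit of the Elongator complex, and for SRM it was RIC8B (r = 0.978). SMS was followed most closely by SLC25A32 (r = 0.976), a mitochondrial folate carrier, and ODC1 by CDC45 (r = 0.975), a replication factor. SAT1 had IRF5 (r = 0.961), PAOX had MTRF1L (r = 0.949) and AZIN1 had LYSMD4 (r = 0.926). Without FAT the r of ODC1 with CDC45 was 0.74, and that of SMOX with BID was 0.988.

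Around the 8 genes, a list of 41 further genes covered ornithine supply, antizymes, S-adenosylmethionine supply, methylthioadenosine salvage, hypusination, transport and MYC regulators. Of these, 34 had a row. In SCF2 against CEF2, 8 of the 32 tested rose and 17 fell, beside 71.3% of all genes called in limma (32.3% higher, 39.0% lower), and the median log2 difference was -0.38 against -0.08 over all genes. In SCF4 against CEF4, 8 rose and 19 fell of 32, beside 68.8% (32.7% higher, 36.1% lower), with a median of -0.57 against -0.04. In CF2 against CEF2, 9 rose and 19 fell of 32, beside 72.2% of all genes called (29.6% higher, 42.6% lower), with a median of -0.51 against -0.18. In CF4 against CEF4, 8 rose and 19 fell of 32, beside 70.2% (31.2% higher, 39.0% lower), with a median of -0.74 against -0.11. Under quantile normalization the all-gene median moved from -0.08 to 0.22 in SCF2 against CEF2 and from -0.04 to 0.16 in SCF4 against CEF4. For the attached lines it went from -0.18 to 0.21 (CF2 against CEF2) and from -0.11 to 0.16 (CF4 against CEF4). Among all genes called, the share of higher ones went from 45.3% to 59.2% in SCF2 and from 47.5% to 57.4% in SCF4. For CF2 it went from 41.0% to 58.7%, and for CF4 from 44.4% to 57.4%.

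Against primary cells, GPC1 had the largest difference of the list in both lines. GPC1, a glypican implicated in polyamine uptake in mammals, had 1814 ± 33.2 normalized reads (SD, n = 3) in CEF2 and 8.64 ± 3.66 in SCF2 (log2 -7.62, SE 0.24, limma adjusted p = 3.61e-15). It had 3329 ± 368 in CEF4 and 3.30 ± 1.06 in SCF4. The attached immortal lines were also low, with 5.23 ± 0.2 in CF2 and 2.40 ± 0.705 in CF4 (log2 of CF to CEF -8.19 and -9.95). MYCN, a MYC family transcription factor, fell in line 2 from 177 ± 30.5 to 6.19 ± 4.29 (log2 -4.89, SE 0.37) and in line 4 by 1.92. MXD1, a MAX partner, fell by 1.32 in line 2 and 2.42 in line 4 (SE 0.13 each). ADI1, of methylthioadenosine salvage, fell by 1.82 in line 2 and 1.25 in line 4, and SLC7A3, a carrier of cationic amino acids, by 1.23 and 2.00 (SE 0.13 each). MXD4, another MAX partner, fell by 1.73 and 1.52. AHCY, which hydrolyses S-adenosylhomocysteine, rose in both (log2 1.52 in line 2 and 2.05 in line 4, SE 0.07 each). OAZ2, an antizyme gene, had 693 ± 37.8 in CEF2 and 2012 ± 214 in SCF2, and 685 ± 70.6 in CEF4 and 1564 ± 145 in SCF4. OAZ1, the other antizyme gene with a row, fell by 0.37 and 0.48 (SE 0.11 each). Most of these genes moved the same way in attached immortal cells (log2 of CF to CEF, line 2 and line 4). MYCN was at -2.16 and -2.27, MXD1 at -1.38 and -2.09, and ADI1 at -2.43 and -1.33. SLC7A3 was at -0.76 and -1.65, MXD4 at -2.76 and -2.69, and AHCY at 1.32 and 1.58. OAZ1 was at -0.32 and -0.93, and OAZ2 at 0.89 and, with overlap, 0.07.

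Against the attached immortal lines, 10 rose and 7 fell of 32 in SCF2 against CF2, beside 43.5% of all genes called in limma (25.2% higher, 18.3% lower), with a median of 0.17 against 0.03 over all genes. In SCF4 against CF4, 13 rose and 6 fell, beside 45.7% (27.3% higher, 18.4% lower), with a median of 0.24 against 0.06. Under quantile normalization the share of higher ones among all genes called went from 58.0% to 50.2% in SCF2 and from 59.7% to 51.5% in SCF4. EIF5A, the translation factor that carries the spermidine-derived residue hypusine, had 4552 ± 31.9 normalized reads in CF2 and 1937 ± 275 in SCF2 (log2 -1.24, SE 0.09, adjusted p = 3.44e-09). It had 5309 ± 40.1 in CF4 and 1873 ± 97.9 in SCF4 (log2 -1.50, SE 0.09, adjusted p = 1.06e-09). Beside primary cells of the same number, EIF5A was higher by 0.85 in CF2 and 1.05 in CF4 on the log2 scale. EIF5A was lower than in those primary cells by 0.39 in SCF2 and 0.45 in SCF4 (SE 0.09 each). In DF1 it had 4617, 4764 and 2153, overlapping with 2627, 2606 and 2563 in SDF1 (log2 -0.48, adjusted p = 0.126). Without DF1 replicate 3 there was no overlap and EIF5A was lower in SDF1 by 0.85 on the log2 scale (SE 0.03, limma adjusted p = 3.66e-13). OAT, which links ornithine to glutamate metabolism, rose by 0.86 in line 2 and 0.74 in line 4 (SE 0.07 each), but against primary cells it fell by 0.77 and 1.27. OAZ2 rose by 0.64 and 1.12 (SE 0.09 each), but in SDF1 against DF1 it was lower by 0.19 (SE 0.06), and by 0.17 without DF1 replicate 3. OAZ1 was at -0.05 with overlap in SCF2 against CF2 and rose by 0.46 in SCF4 against CF4 (SE 0.11 each). In SDF1 against DF1, OAZ1 rose by 0.44 (SE 0.11), and by 0.29 without DF1 replicate 3. MYC, which activates ODC1 transcription in mammals, fell by 0.77 in SCF2 against CF2 and 0.49 in SCF4 against CF4 (SE 0.08 each). Against primary cells, MYC was at 0.05 with overlap in SCF2 and fell by 0.74 in SCF4 (SE 0.08 each). In the attached lines MYC was 0.82 above CEF2 in CF2 and 0.25 below CEF4 in CF4. MXD4 rose by 1.04 and 1.18 (SE 0.18 each), opposite to its fall against primary cells.

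In SDF1 against DF1, 10 of 30 rose and 10 fell, beside 47.9% of all genes called in limma (27.5% higher, 20.4% lower), with a median of -0.11 against 0.08 over all genes. Without DF1 replicate 3, 13 rose and 14 fell, beside 73.9% of all genes called. MYC had 4489, 4813 and 698 normalized reads in DF1 and 428, 408 and 395 in SDF1 (log2 -2.59, SE 0.58, adjusted p = 0.00385), and the value was -3.50 without DF1 replicate 3. MAT1A, a methionine adenosyltransferase, rose from 672 ± 88.6 to 2625 ± 39.0 (log2 1.97, SE 0.10, adjusted p = 1.95e-07; 2.07 without DF1 replicate 3). SLC7A1, a carrier of arginine and ornithine, rose from 290 ± 43.4 to 1066 ± 19.6 (log2 1.89, SE 0.10; 1.76 without DF1 replicate 3). MRI1, of methylthioadenosine salvage, rose by 1.59 (SE 0.21), and by 1.29 without DF1 replicate 3. Under quantile normalization the share of higher calls over all genes went from 57.4% to 46.6% and the median from 0.08 to -0.05.

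**Figure D5:**
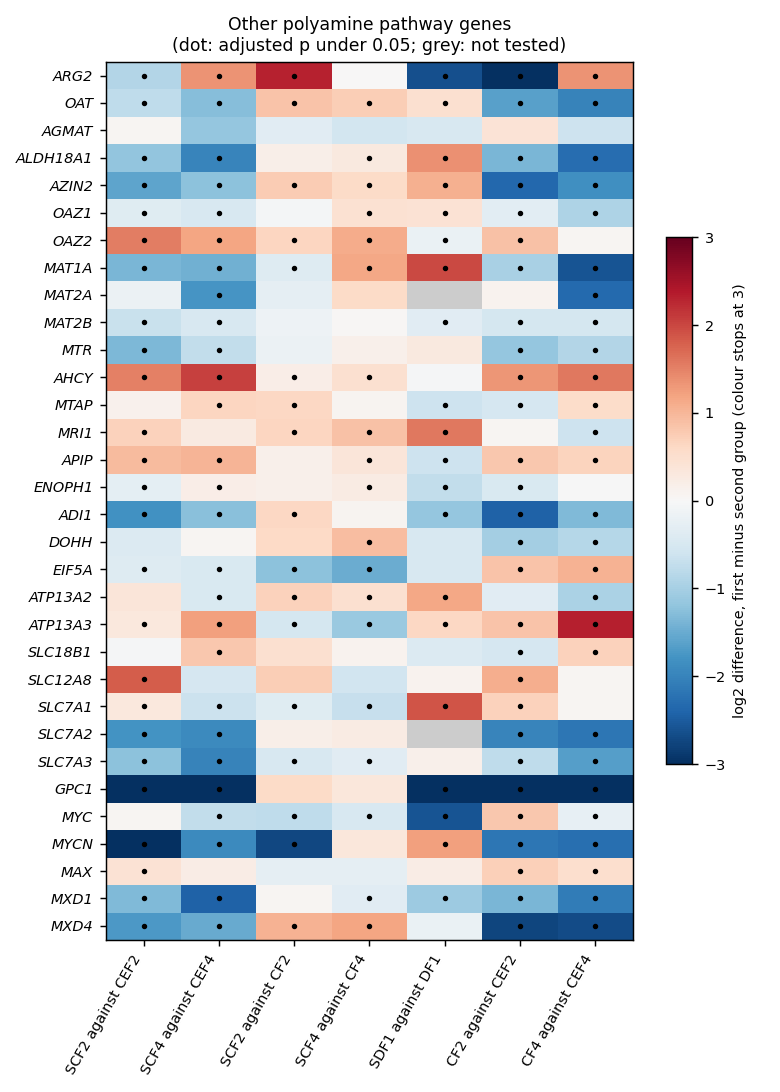
Log2 differences of the other genes of the pathway list (rows) in the comparisons of suspension with attached cells and of attached immortal with primary cells (columns); colour gives the log2 difference, and grey marks genes not tested. GPC1 has the most negative values, -8.19 in CF2 against CEF2 and -9.95 in CF4 against CEF4. In suspension it is at -7.62 in SCF2 against CEF2 and -9.62 in SCF4 against CEF4.

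The authors' deposited tables of primary against suspension cells held 5 of the 8 genes. Their log2 values, read here as primary minus suspension because they ran opposite to the suspension minus primary values here (r of -0.978 over 5469 genes in line 2), were -1.33 for SMOX in line 2 and -1.63 in line 4. In the authors' deposited table, ODC1 was at 0.77 in line 2 and 0.00 in line 4, SAT1 at -0.58 and -0.15, and SMS at -0.40 and -0.66. PAOX was at -1.15 and -0.87 in the authors' deposited table, with a standard error of 1.17 and a mean of 0.767 reads. In the normalized table PAOX had 168 to 608 recovered reads in those libraries, and the cause of that difference was not tested.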

How the data were processed

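Chicken RNA was sequenced as paired-end reads after NuGEN Trio library preparation, per the labels. Bowtie2, RSEM, DESeq2 and the build galGal6 appear in the submitters' processing notes, without versions or roles. The authors deposited a table of signal per gene symbol (14161 rows, 27 libraries). Its name says TPM, but the columns sum to 8.03 to 15.87 M, and dividing each column by its own constant gives whole numbers for 100% of the values in the library with the fewest (tolerance 0.01). The values the authors deposited as signal are thus scaled reads, here called normalized reads. One read equals 0.294 to 0.725 normalized reads in cultured groups and 1.521 to 3.162 in FAT. The sources used here do not say how the constants were set. In 17 rows a date replaced the symbol. The authors also deposited a count table of 24356 Ensembl genes with 23.4 to 53.4 M reads per library, which could not be paired with symbols, and tables with log2 fold changes, p-values and base mean scores of their own comparison.

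Members and lists were chosen with earlier results of these data known, and the pathway list was written from knowledge of the pathway. Genes with 1 or more normalized reads in at least 3 fitted libraries were kept, and limma 3.58.1 (eBayes with trend and robust) was fitted to log2 of normalized reads plus 1, a scale that understates changes of low genes. CEF, CF and SCF shared 1 fit. DF1, SDF1, CF2 and CF4 shared another, SDF1 against SCF used all cultured groups, and FAT was fitted with CF4 and CF2. P-values were adjusted by Benjamini-Hochberg over all genes, and calls needed an adjusted p under 0.05. The plan assumed separate cultures as replicates; where they were not, p-values measure technical spread. In each comparison, up to 4 other pathway genes with the largest called change, no overlap and a mean of 100 or more in the higher group were to be named, and AHCY, OAZ1, OAZ2, EIF5A, OAT, MYC and MXD4 were followed across comparisons after their values were seen. For each member, the 3 genes with the closest pattern of group means were sought among genes with a mean of 100 or more in a group.

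Alternatives were quantile normalization, a pseudocount of 0.1, no filter or a filter of 10, edgeR 4.0.16 and DESeq2 1.42.0 on recovered reads, only the groups compared, a replicate block, and leaving out each library. On recovered reads, edgeR called 9168 genes in SCF2 against CEF2 and limma 9363 on normalized reads, and 5678 against 5667 in SDF1 against DF1. The fits were tested on simulated data. Software was R 4.3.3, Python 3.11.15, pandas 2.3.3, numpy 2.4.6 and matplotlib 3.10.9.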

Additional observations from a re-analysis of the deposited data

Results flagged for a closer look

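The change from primary to attached immortal cells differed between the lines for 3 of the 8 genes by a test of the difference itself (limma, adjusted over all genes), in a contrast where 50.7% of all genes were called. For SRM the difference was -0.69 on the log2 scale (adjusted p = 1.53e-04), from a change of -0.58 in line 2 and -1.26 in line 4. For SAT1 it was -0.67 (adjusted p = 0.0122), from 0.98 and 0.31. For ODC1 it was 0.44 (adjusted p = 0.0272), from -0.75 and -0.32.

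Among the pairings of a suspension line with its attached immortal line, a gene differed in opposite directions without overlap of the libraries in 2 cases, and the difference was not tested. SAT1 was lower in SCF2 than in CF2 (log2 -0.23, SE 0.15) and higher in SDF1 than in DF1 (1.26), a difference of 1.49. Without DF1 replicate 3 the SAT1 value of SDF1 to DF1 was 0.91. ODC1 was higher in SCF4 than in CF4 (0.36, SE 0.11) and lower in SDF1 than in DF1 (-0.87), a difference of -1.24. Without DF1 replicate 3 the ODC1 value of SDF1 to DF1 was -0.94. SCF against CF spans both deposited sets, while SDF1 and DF1 share a set.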

How the results depend on the processing

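Of the tested member values under other settings, 479 kept their direction and their side of the threshold, 15 gained a call, 6 lost it and 12 changed sign. With a library left out, 402 kept both, 7 gained a call, 10 lost it and 13 changed sign. Of the described suspension values under other settings, 110 moved by less than the pooled SD of the libraries and 10 by more. These were 40 values under each of quantile normalization, a pseudocount of 0.1 and fitting only the groups compared. Fitting only those groups cannot change a difference of means, and that pseudocount hardly changes genes at these levels. The numbers thus speak mainly to quantile normalization. With a library left out, 240 described values moved by less and none by more. Leaving out 1 of 3 libraries cannot shift a mean by as much as that SD, so this count tests nothing. Leaving out each library moved the called members from 4 to 5 in CEF4 against CEF2, 7 to 8 in CF2 against CEF2, 5 to 6 in CF4 against CEF4, 2 to 3 in SCF4 against SCF2, 5 to 7 in DF1 against the CF lines, 5 to 6 in SDF1 against the SCF lines and 6 to 8 in FAT against CF4. The count of pairs without overlap was 32 to 34, and leaving out a library cannot lower it. Fitting only the groups compared, the called members went from 1 to 6 in CF4 against CF2 (all genes 5955 to 8442) and from 3 to 1 in SCF4 against SCF2 (all genes 4222 to 2838). Over all genes the calls also went from 5667 to 3619 in SDF1 against DF1. CF4 against CF2 gave 2 under quantile normalization and 2 with DESeq2. The cause was not tested.

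Some signs reversed. Under quantile normalization, PAOX was at 0.47 in CF2 against CEF2, 0.25 in CF4 against CEF4, 0.10 in CEF4 against CEF2 and -0.11 in CF4 against CF2. SMOX was then at 0.05 in CF4 against CEF4 and -0.33 in FAT against CF4, SAT1 at 0.01 in CF4 against CF2 and 0.00 in SCF4 against SCF2, and AMD1 at -0.21 in FAT against CF4. AMD1 in FAT against CF4 was at -0.27 with edgeR and -0.08 with DESeq2, and SAT1 in SCF4 against SCF2 at 0.01 with edgeR. With 1 library left out at a time, values that passed through 0 ran from -0.29 to 0.01 for PAOX in CF4 against CEF4 and from -0.28 to 0.10 in CEF4 against CEF2. In SCF4 against SCF2 they ran from -0.11 to 0.04 for AMD1, -0.13 to 0.06 for SRM and -0.15 to 0.13 for SAT1. SAT1 ran from -0.46 to 0.07 in DF1 against the CF lines, positive only without DF1 replicate 3, and AMD1 from -0.13 to 0.26 in FAT against CF4. AZIN1 lost its call in FAT against CF4 when only these groups were fitted, and ODC1 and SMS in SCF4 against SCF2.

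Replicate numbers did not pair the libraries: residuals of equal numbers correlated from -0.421 to 0.186. With a replicate block the called members numbered 7 in CF2 against CEF2, 6 in CF4 against CEF4 and 3 in SCF4 against SCF2, as without it. The planned fit on the deposited count table was not run, because its genes have no symbols here. Depth limits FAT most, where ODC1 rests on 25 to 101 reads.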

Other observations

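MAT2A, which in mammals is the methionine adenosyltransferase gene of most tissues, had 0 to 5.84 normalized reads in all 27 libraries (0 to 13 reads). MAT1A, the form of mammalian liver, had 672 ± 88.6 in DF1, 2625 ± 39.0 in SDF1 and 59.3 ± 0.648 in CF4 (SD, n = 3). Whether the row of MAT2A holds all reads of that gene was not tested.

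In DF1 replicate 3, MYC had 698 normalized reads beside 4489 and 4813 in the other DF1 libraries, while ODC1 had 1067 beside 1252 and 1181.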
